A study of Mus musculus with 8 samples.

Results

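The genes described here encode 10 proteins of the dermal extracellular matrix other than collagens: dermatopontin (Dpt), decorin (Dcn), lumican (Lum), fibrillin 1 (Fbn1), elastin (Eln), fibronectin (Fn1), SPARC (Sparc), periostin (Postn), thrombospondin 1 (Thbs1) and tenascin C (Tnc). They were chosen by name as fibroblast matrix and matricellular genes, and all 10 were found among the 21885 named genes of the table, each with a value above the 1 FPKM minimum in all 8 libraries. Expression was measured by RNA sequencing of mouse skin, in FPKM, a unit that divides the fragments of a gene by its length and by the library total, in 2 groups of 4 libraries. In the first group the skin was treated with MC903, and in the second with MC903 plus phytic acid. MC903 (calcipotriol) is an analogue of vitamin D that, put on mouse skin, causes inflammation resembling atopic dermatitis, and phytic acid is inositol hexaphosphate. Both groups received MC903 and neither was untreated skin, so each value is relative to MC903 skin. The labels do not state strain, sex, age, skin site, dose or times, and nothing in the labels says that the libraries came from separate mice. The p-values therefore rest only on the spread among these samples, and that spread may be technical.

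Dermal fibroblasts make most of the matrix that gives skin its strength and stretch. Collagen fibrils are dressed by small leucine-rich proteoglycans such as decorin and lumican and by dermatopontin, which set fibril size and spacing, while fibrillin microfibrils carry elastin in elastic fibres. Fibronectin is laid down early in repair as a scaffold that integrins grip. Matricellular proteins (tenascin C, periostin, SPARC, thrombospondin 1) are made in development and after injury, and act on cells more than as building material. Tenascin C is low in resting adult skin and is known to be induced in wounded and inflamed skin.

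With phytic acid, skin had more RNA of dermatopontin, fibronectin and decorin and far less RNA of tenascin C. Mean Dpt went from 71.8 ± 13.5 (SD, n = 4) to 186 ± 56.9 FPKM, Fn1 from 11.4 ± 1.76 to 26.4 ± 8.77, Dcn from 228 ± 29.4 to 350.0 ± 59.2 and Tnc from 33.2 ± 30.9 to 4.60 ± 2.59. Of the 10 genes, 3 were called higher and 1 lower at an adjusted p under 0.05 (limma, Benjamini-Hochberg over the 12165 genes tested). Across all genes tested, 14.2% were called higher, 11.6% lower and 25.8% in either direction. For 4 of the 10 genes every library of 1 group was above every library of the other, against 27.3% of all genes tested. The median log2 fold change (MC903 plus phytic acid minus MC903, of FPKM + 1, which understates changes of low genes) was 0.52 for the 10 genes and 0.05 for all genes tested. The number of genes called over the whole table was 3134, with 1722 higher. It fell to 1952 without MC903 replicate 1 (1065 higher and 887 lower). Calls of higher genes were 1113 without phytic acid replicate 1 and 1143 without MC903 replicate 2, and calls of lower genes were 910 without MC903 replicate 4. The share of calls that were higher was 54.9%, and it was 44.5% with median-of-ratios scaling, 78.4% centred on basal keratinocyte genes and 5.6% centred on fibroblast markers.

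**Figure D1:**
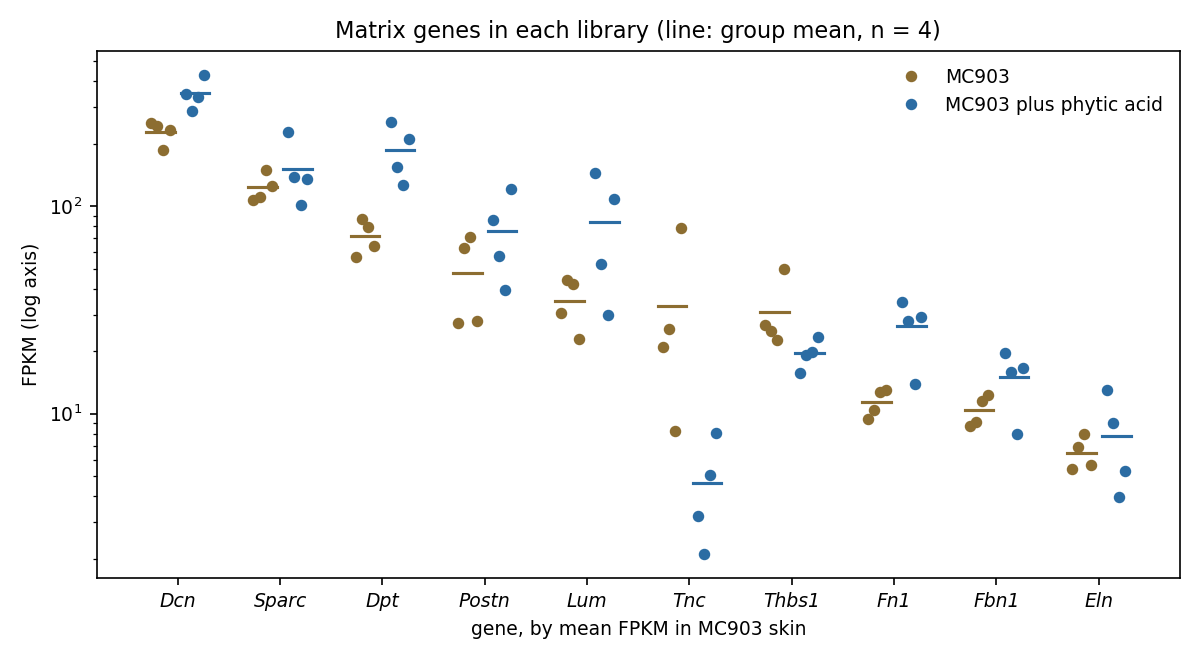
FPKM (log axis) of the 10 matrix genes in the 4 MC903 and 4 MC903 plus phytic acid libraries, with 1 point per library and a line at each group mean. The groups do not overlap for Dcn, Dpt, Fn1 and Tnc, and the Tnc points of MC903 skin run from 8.27 to 78.2.

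Library totals recovered from the values were 31676933 to 37639476 reads in MC903 skin and 38310033 to 42997271 with phytic acid, and each member had between 627 (Tnc, phytic acid replicate 2) and 102447 reads (Dcn, phytic acid replicate 4), so counting error is small beside the spread between libraries. Some lists of other tissue markers moved with the groups and some did not. The summed FPKM of 12 basal keratinocyte genes was 4429 to 8026 in MC903 skin and 2662 to 3143 with phytic acid. Most of that sum was Krt14 (5275 ± 1619, SD, n = 4, and 1357 ± 254), and the other 11 genes summed to 1023 to 1383 and to 1413 to 1616, higher with phytic acid. Among these genes, Krt14 and Cdh3 were called lower and Krt15 and Dst were called higher. The summed FPKM of 15 skeletal muscle markers was 4373 to 5160 and 9339 to 10854, and that of 12 adipocyte markers 326 to 767 and 854 to 1774. Most of the adipocyte difference lay in Cfd (173 ± 103, SD, n = 4, and 532 ± 140) and Car3 (70.2 ± 51.6 and 406 ± 202). Of 11 adipocyte markers tested, 4 were called higher (Adipoq, Car3, Cfd and Retn), where 14.2% of all genes tested were called higher. The other 7 did not pass, and the means of Lpl and Plin4 among them were lower with phytic acid. MC903 replicate 3 stood apart in 14 hair follicle genes, at 4647 against 450 to 611 in the other MC903 libraries and 22.4 to 29.2 with phytic acid. The sums of 11 endothelial markers overlapped, at 83.3 to 115 in MC903 skin and 94.3 to 102 with phytic acid. So did those of 12 macrophage markers, at 767 to 1242 and 1227 to 1733. Of 15 cartilage markers only Sox9 had enough signal to be tested. The part of these markers in the results below was not tested. In bulk skin, a change in how many cells of a type there are and a change in RNA per cell cannot be told apart.

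Decorin, a proteoglycan that binds collagen fibrils and also growth factors, was the most abundant of the 10 RNAs in every library. Dcn (chromosome 10, 97479609 to 97518143, plus strand) stood at 252, 243, 186 and 233 FPKM in the MC903 libraries, always listed here from replicate 1 to replicate 4. In the phytic acid libraries it stood at 347, 288, 334 and 430.3. Every phytic acid library was above every MC903 library, with a log2 fold change of 0.61 ± 0.15 (SE) and an adjusted p of 0.0185 by limma. The call was lost with median-of-ratios scaling (0.53, adjusted p = 0.0702 by limma) and when centred on fibroblast markers (0.11, adjusted p = 0.617).

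Dermatopontin, a small protein that joins decorin to collagen and speeds fibril formation, had the largest rise of the 10. Dpt (chromosome 1, 164796644 to 164824266, plus strand) had 56.9, 86.6, 79.0 and 64.5 FPKM in MC903 skin and 254, 154, 127 and 210 with phytic acid. The groups were well apart, with a log2 fold change of 1.33 ± 0.22 (SE) and an adjusted p of 0.00310 by limma. It passed under each alternative run, at log2 fold changes of 0.84 (centred on fibroblast markers) to 1.54 (library weights). Dpt followed Dcn and Sparc in 3 of the MC903 libraries, and stood above Sparc, behind Dcn alone, in all 4 phytic acid libraries.

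Lumican, a sister proteoglycan of decorin whose gene lies beside it on chromosome 10 (97565128 to 97572703, plus strand), was uneven. Lum had 30.6, 43.8, 42.2 and 22.8 FPKM in MC903 skin and 145, 52.4, 29.8 and 108 with phytic acid. Phytic acid replicate 3 lay within the MC903 range, while the other 3 lay above it. Its log2 fold change was 1.04 ± 0.44 (SE; adjusted p = 0.112 by limma), not called, with a 95% interval of 0.05 to 2.03 before adjustment. Without phytic acid replicate 3 it passed (1.45, adjusted p = 0.0189).

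Neither elastic fibre gene passed. Fbn1 (chromosome 2, 125300594 to 125507993, minus strand), the backbone of microfibrils, had 8.73, 9.15, 11.5 and 12.3 FPKM in MC903 skin and 19.6, 15.9, 8.002 and 16.5 with phytic acid. Phytic acid replicate 3 was below all MC903 libraries and the other 3 above them all, and the log2 fold change was 0.44 ± 0.24 (SE; adjusted p = 0.205 by limma), or 0.69 without that library (adjusted p = 0.0106). Eln (chromosome 5, 134702593 to 134747323, minus strand), the stretchable core, was the least abundant of the 10 in MC903 skin, at 5.41, 6.94, 7.93 and 5.63 FPKM, and stood at 13.0, 8.97, 3.96 and 5.30 with phytic acid. The phytic acid libraries lay on both sides of the MC903 range, with a log2 fold change of 0.13 ± 0.29 (SE; adjusted p = 0.767 by limma) and a 95% interval of -0.52 to 0.78. Within each library the log2 ratio of Eln to Fbn1 differed by -0.33 between the groups (exact permutation p = 0.286, two-sided; adjusted p = 0.429 over 3 ratios), and that of Lum to Dcn by 0.45 (exact permutation p = 0.429; adjusted p = 0.429).

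Fibronectin rose with decorin and dermatopontin. Fn1 (chromosome 1, 71585520 to 71653200, minus strand) had 9.36, 10.4, 12.7 and 13.0 FPKM in MC903 skin and 34.4, 28.0, 13.9 and 29.2 with phytic acid. Phytic acid replicate 3 was only just above the highest MC903 library and the other 3 were far above it. The log2 fold change was 1.09 ± 0.24 (SE; adjusted p = 0.0117 by limma), and it passed under each alternative run, at 0.59 centred on fibroblast markers and 1.36 without phytic acid replicate 3.

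Tenascin C moved the other way. Tnc (chromosome 4, 63959785 to 64047015, minus strand) had 20.8, 25.5, 8.27 and 78.2 FPKM in MC903 skin and 3.20, 2.11, 5.06 and 8.04 with phytic acid. MC903 replicate 4 was far above the rest, and MC903 replicate 3, the library with the high hair follicle genes, was barely above phytic acid replicate 4. The log2 fold change was -2.30 ± 0.57 (SE; adjusted p = 0.0174 by limma). It was -1.76 without MC903 replicate 4 (adjusted p = 0.0255) and -2.79 without MC903 replicate 3 (adjusted p = 0.00263), and the call was narrowly lost without phytic acid replicate 2 (-2.06, adjusted p = 0.0516). Centred on fibroblast markers it was -2.80 (adjusted p = 0.00123). In the order of levels among the 10 genes, Tnc held ranks 7, 6, 9 and 3 in the MC903 libraries and ranks 10, 10, 9 and 9 with phytic acid. The log2 ratio of Tnc to Fn1 was 1.10 ± 1.32 (SD, n = 4) in MC903 skin and -2.62 ± 1.13 with phytic acid. The libraries did not overlap (exact permutation p = 0.0286, two-sided, the smallest that 4 against 4 can give; adjusted p = 0.0857 over 3 ratios). Tnc and Fn1 each separated the groups already, in opposite directions. Their ratio therefore had to separate them too, and its p-value adds nothing to the 2 single results.

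**Figure D2:**
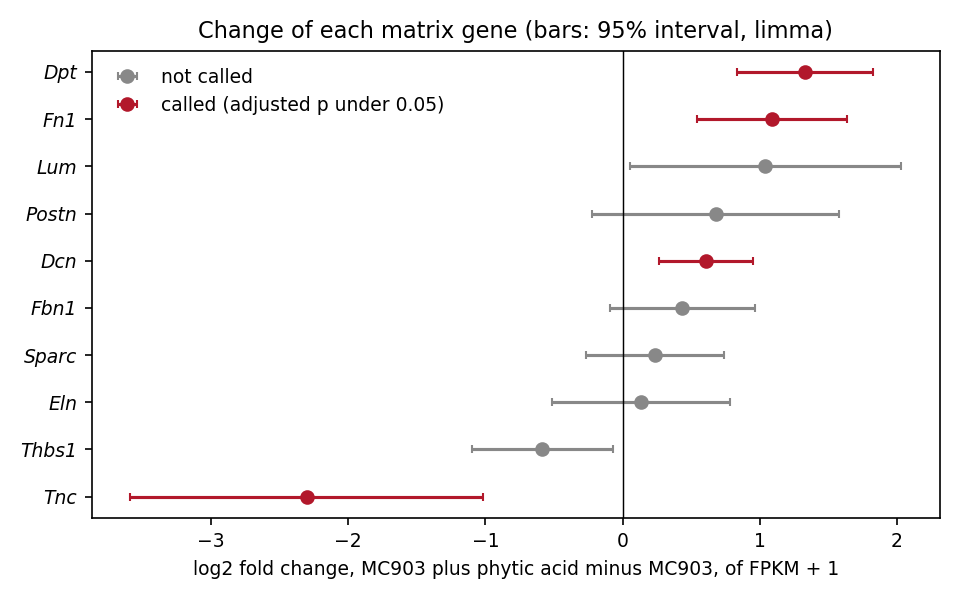
Log2 fold change of each of the 10 genes (MC903 plus phytic acid minus MC903, of FPKM + 1) with its 95% interval from limma, red where the adjusted p is under 0.05. Dpt, Fn1 and Dcn lie to the right of 0 and Tnc far to the left at -2.30, while the intervals of Lum and Thbs1 exclude 0 without passing the adjustment over all genes.

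The start regions of Dpt and Tnc, the genes with the largest rise and fall, are shown because they are called members with an entry among the RefSeq promoter sequences (GRCm38.p6), which matched 5 of the 10 genes. They are given 5′ to 3′ on the gene's own strand, up to the base before the annotated start, with each TATAAA in capitals: chr1:164796413-164796643 (plus strand) for Dpt and chr4:64047016-64047265 (minus strand) for Tnc.
Dpt: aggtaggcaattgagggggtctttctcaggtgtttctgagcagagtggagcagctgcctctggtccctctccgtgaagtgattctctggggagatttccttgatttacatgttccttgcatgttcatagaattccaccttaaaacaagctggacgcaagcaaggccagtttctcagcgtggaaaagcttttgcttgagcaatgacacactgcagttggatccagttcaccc
Tnc: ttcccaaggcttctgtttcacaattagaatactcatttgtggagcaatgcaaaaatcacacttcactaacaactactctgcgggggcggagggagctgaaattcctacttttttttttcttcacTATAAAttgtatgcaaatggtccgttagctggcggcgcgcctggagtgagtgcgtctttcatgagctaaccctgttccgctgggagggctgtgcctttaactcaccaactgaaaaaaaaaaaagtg
On either strand of the 250 bases before the RefSeq start, the TATA box (TATAAA), the CCAAT box (CCAAT), the AP-1 site (TGANTCA), the SMAD box (CAGAC), the TEAD site (GGAATG), the GC box (GGGCGG) and the CArG box (by name) were searched for, none of which overlapped another in these genes. Tnc held a TATAAA that begins 126 bases before the start, which 12.4% of all 32851 promoters also hold, and a GC box that begins 167 bases before it (32.7% of promoters). Postn held a TATAAA that begins 26 bases before its start. Dpt held none of the 7, and a missing match says only that these letters are not in this window.

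Thrombospondin 1, a matricellular protein that activates latent TGF-beta and curbs vessel growth, had a lower mean with phytic acid but did not pass. Thbs1 (chromosome 2, 118111876 to 118127133, plus strand) had 26.7, 24.9, 22.6 and 49.7 FPKM in MC903 skin and 15.6, 19.1, 19.9 and 23.4 with phytic acid. Only phytic acid replicate 4 reached the MC903 range, and MC903 replicate 4, highest also for Tnc, was far above the other MC903 libraries. The log2 fold change was -0.59 ± 0.23 (SE; adjusted p = 0.0889 by limma). Thbs1 was called lower without MC903 replicate 3 (-0.71, adjusted p = 0.0438) and when centred on fibroblast markers (-1.08, adjusted p = 0.0027). The fit with the replicate number as a block also called Thbs1 lower (-0.59, adjusted p = 0.0485 by limma).

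Periostin, which cross-links collagen and is induced by the type 2 cytokines IL-4 and IL-13, spread widely in both groups. Postn (chromosome 3, 54361109 to 54391037, plus strand) had 27.4, 63.0, 71.3 and 27.9 FPKM in MC903 skin and 85.5, 57.8, 39.2 and 121 with phytic acid. The MC903 libraries formed a low and a high pair, 2 phytic acid libraries lay within their range, and the log2 fold change was 0.68 ± 0.40 (SE; adjusted p = 0.247 by limma) with a 95% interval of -0.23 to 1.58. Postn was called higher with library weights (1.17, adjusted p = 0.0277 by limma), and its value was 0.42 without phytic acid replicate 4. Sparc (chromosome 11, 55394500 to 55423183, minus strand), a collagen-binding calcium protein, was second in abundance in MC903 skin, at 107, 110, 150 and 125 FPKM, and stood at 227, 138, 101 and 136 with phytic acid. Apart from phytic acid replicate 1 these lay in the same range or, in replicate 3, just below it, and the log2 fold change was 0.24 ± 0.22 (SE; adjusted p = 0.467 by limma), with a 95% interval of -0.26 to 0.74. Leaving out phytic acid replicate 1 gave 0.02, and leaving out replicate 3 of that group gave 0.41.

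In the order of mean FPKM in MC903 skin, Dcn stood above all other members by more than the spread. Sparc followed, above Dpt in every comparison of libraries. Postn, Lum, Tnc and Thbs1 (means of 47.4, 34.9, 33.2 and 30.97) overlapped each other, as did Fn1 and Fbn1 (11.4 and 10.4), and the libraries of Eln (6.48) were below those of all other members. With phytic acid the order was Dcn, Dpt, Sparc, Lum, Postn, Fn1, Thbs1, Fbn1, Eln and Tnc, and neighbours in this order overlapped except Dcn with Dpt and Postn with Fn1. Summed over Dcn, Dpt, Lum, Fbn1 and Eln, the resident matrix genes, the level was 326 to 390 FPKM in MC903 skin and 503 to 778 with phytic acid. Most of that sum was Dcn (means of 228 and 350.0) and Dpt (71.8 and 186), both called higher. For Lum, Fbn1 and Eln the groups overlapped, so the separation of the sum does not speak for each gene in it. Summed over Fn1, Sparc, Postn, Thbs1 and Tnc, the level was 192 to 294 and 179 to 366, which overlap. Together the 10 genes took 0.168% to 0.201% of the FPKM of a MC903 library and 0.208% to 0.373% with phytic acid.

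Several members were highest or lowest in the same library of a group. Within the phytic acid group, replicate 1 held the highest value of 6 of the 10 genes (Dpt, Fn1, Lum, Fbn1, Eln and Sparc) and replicate 3 the lowest of 7 (those and Postn). In the MC903 group replicate 1 was lowest for 6, and replicate 4 highest for Fn1, Tnc, Fbn1 and Thbs1. MC903 replicate 3 was highest for Postn, Eln and Sparc and lowest for Tnc, Dcn and Thbs1. The collagen gene Col1a1 had 25.4, 22.4, 71.8 and 26.7 FPKM in MC903 skin and 109.96, 61.8, 19.1 and 36.5 with phytic acid, so that it was also highest in phytic acid replicate 1 and lowest in replicate 3. The adipocyte gene Adipoq had 6.35, 15.3, 37.9 and 8.02 FPKM and 125, 43.7, 38.5 and 83.8, highest and lowest in those same phytic acid libraries. Within the MC903 group, Col1a1 and Adipoq were both highest in replicate 3, where the members went both ways. Whether the amount of dermis and fat in a sample has a part in the member values was not tested.

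**Figure D3:**
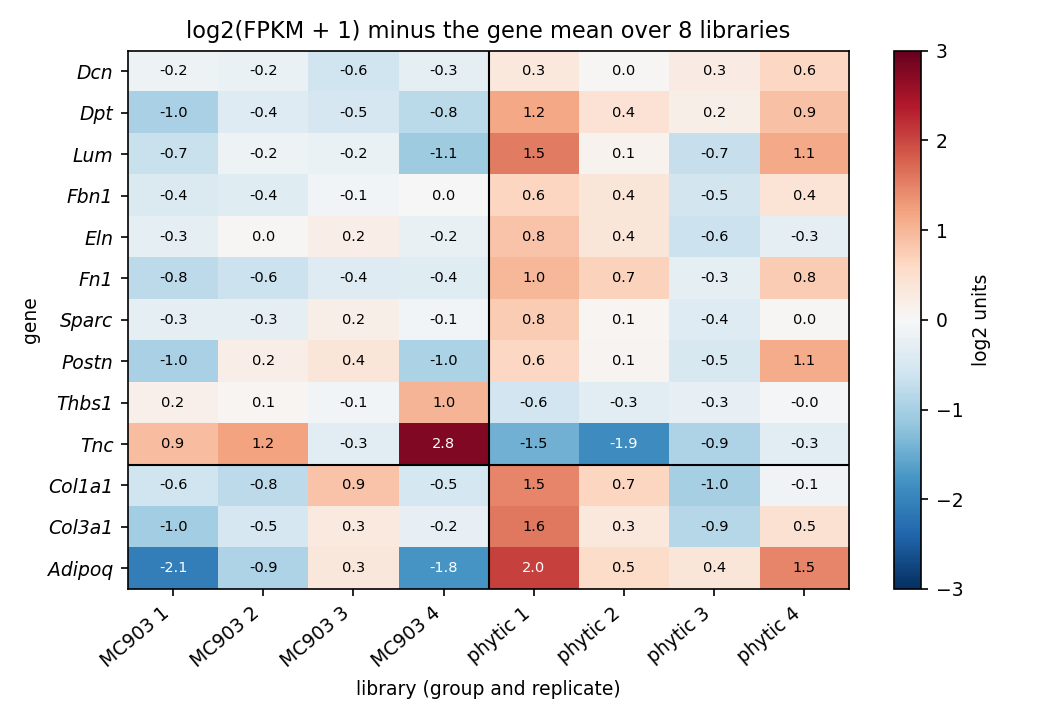
log2(FPKM + 1) of the 10 genes and of Col1a1, Col3a1 and Adipoq in each library, minus the gene's mean over the 8 libraries (red above, blue below). Phytic acid replicate 1 is above the mean and replicate 3 below it for Lum, Fbn1, Eln, Fn1, Sparc, Postn, Col1a1 and Col3a1, and Tnc lies on the other side of its mean from Dpt in each library but MC903 replicate 3.

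Of 8 tested small leucine-rich proteoglycan genes outside the 10, the relatives of decorin and lumican, 5 rose (Ogn, Ecm2, Aspn, Omd and Podn). Of all genes tested, 14.2% were called higher. Bgn, Fmod and Prelp did not pass, and the median log2 fold change of the 8 was 0.94 against 0.05 for all genes tested. Ogn (osteoglycin) rose from 18.0 ± 4.09 (SD, n = 4) to 57.3 ± 15.2 FPKM, a log2 fold change of 1.61 ± 0.20 (SE; adjusted p = 0.000911 by limma), and Ecm2 from 2.94 ± 1.47 to 9.32 ± 3.84. Centred on fibroblast markers, 2 rose and the median was 0.44. The median was 0.51 with no filter on low values, and 3 rose when a mean of 5 FPKM was asked for.

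Of 19 tested partners of fibrillin and elastin, 2 rose, where 14.2% of all genes tested were called higher: Efemp1 (fibulin 3), from 33.0 ± 6.33 (SD, n = 4) to 71.8 ± 16.2 FPKM, and Ltbp1, which stores latent TGF-beta on microfibrils, from 5.19 ± 0.286 to 6.80 ± 0.561. The median was 0.15, and -0.35 when centred on fibroblast markers, where 6 were lower. Without MC903 replicate 3 or phytic acid replicate 3, 5 rose, and 1 rose without any 1 of the other libraries except MC903 replicate 2.

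Of 16 tested relatives of the matricellular members, 5 rose (Ccn5, Tnxb, Ccn1, Smoc2 and Sparcl1) and Spp1 (osteopontin) fell, with a median of 0.29, or -0.21 centred on fibroblast markers. Of all genes tested, 14.2% were called higher and 11.6% lower. Tnxb, the tenascin that organises collagen and whose loss makes skin stretchy, rose from 6.09 ± 0.865 (SD, n = 4) to 11.2 ± 2.99 FPKM (log2 fold change 0.75 ± 0.17, SE; adjusted p = 0.0133 by limma), so the 2 tenascin genes Tnc and Tnxb went opposite ways. Ccn5 went from 1.49 ± 0.251 to 4.52 ± 0.745 and Spp1 from 24.4 ± 14.9 to 6.97 ± 1.95. Spp1, like Tnc, was highest in MC903 replicate 4 (43.7 FPKM). Thbs2, the nearest relative of Thbs1, stood at 55.7, 37.3, 20.02 and 64.5 and at 25.1, 30.8, 38.8 and 25.9 (adjusted p = 0.344). The count of rises was 3 when MC903 replicate 2 or 4, or phytic acid replicate 4, was left out, and 2 relatives were called lower without MC903 replicate 3.

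Of 8 tested genes of hyaluronan, the water-binding sugar polymer of the matrix, and of large proteoglycans, 5 fell: Cemip, which breaks hyaluronan down, Hyal1, a lysosomal hyaluronidase, Has3, a hyaluronan synthase, Cd44, its receptor, and Prg4, the joint lubricant lubricin. The large proteoglycans Vcan (log2 fold change -0.35, adjusted p = 0.389 by limma) and Hspg2 (0.14, adjusted p = 0.715) and the hyaluronidase Hyal2 (-0.34, adjusted p = 0.0586) did not pass. Cemip went from 5.18 ± 1.79 (SD, n = 4) to 0.454 ± 0.152 FPKM (log2 fold change -2.04 ± 0.22, SE; adjusted p = 0.000486 by limma) and Hyal1 from 4.31 ± 0.475 to 2.36 ± 0.265. Over all genes tested, 11.6% were called lower. The median of the 8 genes was -0.83. With no filter on low values it was -0.12. The count was 3 without MC903 replicate 1 or 2, and 2 when a mean of 5 FPKM was asked for.

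Of 12 collagen genes tested, Col1a1, Col1a2, Col3a1, Col5a1, Col5a2 and Col5a3 encode chains of the fibrils that decorin and dermatopontin bind. The others, Col6a1, Col6a2, Col6a3, Col12a1, Col14a1 and Col16a1, encode collagens that are not fibrillar chains. The median log2 fold change of the 12 was 0.53. Only Col14a1, not a fibrillar chain, was called, where 14.2% of all genes tested were called higher. It went from 2.98 ± 1.18 (SD, n = 4) to 6.41 ± 2.01 FPKM (adjusted p = 0.0251 by limma). Without phytic acid replicate 3, 3 were called higher and without MC903 replicate 3, 2 were, while library weights called 6 (median 0.75). Col14a1 was not called when replicate 1, 2 or 4 of either group was left out, and the median was 0.04 centred on fibroblast markers.

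Among 24 tested receptors of these proteins, 5 rose (Sdc4, Sdc2, Itga8, Itga4 and Cd47) and 3 fell (Sdc1, Itgb6 and Stab1). These counts are near the shares over all genes tested, 14.2% called higher and 11.6% lower. The median of the receptors was 0.09 (-0.40 centred on fibroblast markers, where 12 were lower). Sdc4, which works with integrins on fibronectin, rose from 75.7 ± 10.1 (SD, n = 4) to 117 ± 7.96 FPKM and Sdc2 from 9.36 ± 0.911 to 13.8 ± 1.63. Sdc1, the syndecan of epidermis, fell from 171 ± 12.9 to 97.4 ± 6.81 (adjusted p = 0.000838 by limma), and Itgb6, an epithelial integrin subunit that binds fibronectin and tenascin C, from 4.83 ± 0.813 to 1.94 ± 0.570. The main fibronectin receptor genes Itga5 (log2 fold change -0.21, adjusted p = 0.366) and Itgb1 (-0.01, adjusted p = 0.982) did not pass. Without MC903 replicate 3, 9 receptors rose.

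Genes of TGF-beta signalling and response, a pathway that induces fibronectin, tenascin C and periostin in fibroblasts, went both ways. Of 16 tested, 4 rose (Cnn1, Acta2, Ltbp1 and Tgfb2) and 3 fell (Pmepa1, Skil and Smad7), where 14.2% of all genes tested were called higher and 11.6% lower. The median was -0.07, which was 0.10 centred on basal keratinocyte genes, 0.05 with MC903 replicate 4 left out and 0.01 with phytic acid replicate 1 left out. The contractile gene Acta2 rose from 48.5 ± 11.5 (SD, n = 4) to 82.1 ± 9.37 FPKM and Cnn1 from 1.25 ± 0.141 to 3.61 ± 1.07, while the TGF-beta feedback genes Pmepa1 and Skil fell from 28.4 ± 7.45 to 5.43 ± 1.04 and from 10.04 ± 0.690 to 7.36 ± 0.661. Of 10 smooth muscle and pericyte markers 4 rose (Myh11, Cnn1, Actg2 and Des) and 6 did not pass. Myh11 went from 10.2 ± 1.47 to 20.9 ± 1.84, and the sum of the 10 was 262 to 290 and 375 to 483. Without Des, which skeletal muscle also expresses, the sums were 55.7 to 76.6 and 72.6 to 104 and overlapped. Among the 16 TGF-beta genes the count of rises was 2 without MC903 replicate 4 or any 1 of phytic acid replicates 1, 2 and 4.

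**Figure D4:**
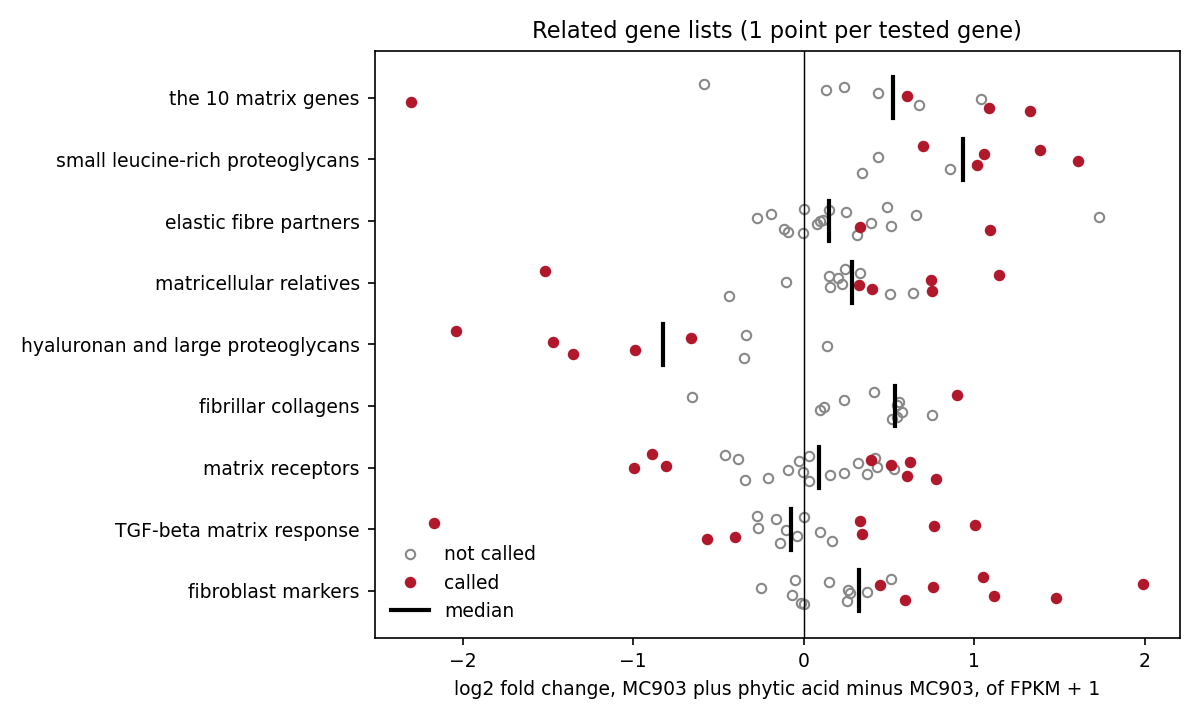
Log2 fold change of every tested gene (1 point each) of the 10 matrix genes and of 8 related lists, with the list median as a bar. The small leucine-rich proteoglycans lie furthest to the right (median 0.94) and the hyaluronan and large proteoglycan genes furthest to the left (-0.83). The list shown as fibrillar collagens also holds Col6a1, Col6a2, Col6a3, Col12a1, Col14a1 and Col16a1.

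Fibroblast markers gave a mixed picture. Of 18 tested markers outside the 10, 7 rose (Clec3b, Vim, Serping1, Dpp4, Cd34, Mgp and Pi16) and 11 did not pass. Of all genes tested, 14.2% were called higher. The median log2 fold change of the 18 markers was 0.32. Clec3b (tetranectin) rose from 17.8 ± 3.80 (SD, n = 4) to 74.7 ± 20.7 FPKM and Vim (vimentin) from 79.4 ± 15.7 to 165 ± 24.3. The lineage markers Pdgfra (log2 fold change 0.00, adjusted p = 0.988 by limma) and Pdgfrb (-0.01, adjusted p = 0.965) did not pass. Vim, Cd34, Thy1 and S100a4 are also expressed by other cells of skin. When each library was centred on the mean of these markers, Dpt and Fn1 stayed called higher, Tnc stayed called lower, Thbs1 became so, and Dcn (0.11) was no longer called. When centred on basal keratinocyte genes, Dpt, Fn1, Dcn and Lum (1.22, adjusted p = 0.0486) were called higher and Tnc lower.

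**Figure D5:**
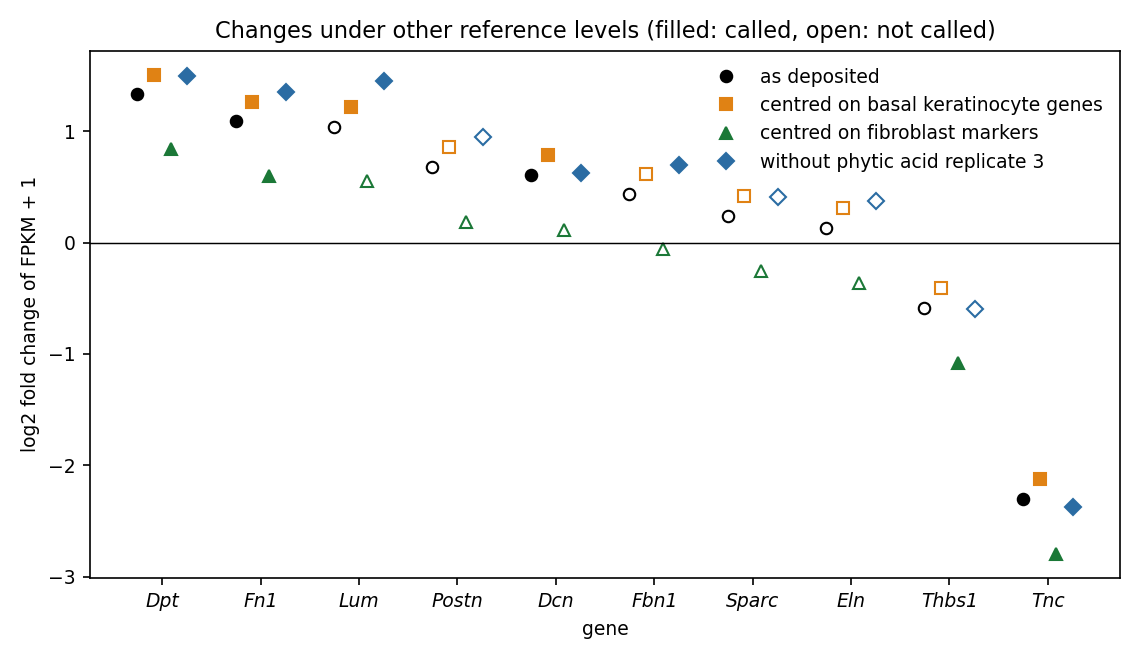
Log2 fold change of each of the 10 genes as deposited, centred on basal keratinocyte genes, centred on fibroblast markers, and without phytic acid replicate 3 (filled symbols: called). Dpt, Fn1 and Tnc are filled in every setting shown, while Dcn centred on fibroblast markers is near 0.

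By distance of the centred log2 profiles over the 8 libraries (root mean square), the tested genes most like Dpt were Nkg7 (0.13) and Tmod4 (0.17), those most like Fn1 were Myo1g (0.09) and Spn (0.13), and those most like Dcn were Fkbp7 (0.09) and Sh3bgrl (0.09). Nkg7, Myo1g and Spn are leukocyte genes and Tmod4 is a muscle gene. The 3 leukocyte genes were low in MC903 skin (means of 1.41, 1.68 and 1.10 FPKM), where the added 1 shrinks changes. The distance includes the difference between the groups, so a near gene need not follow the member within a group. Those most like Tnc were Lce3f (0.39) and Lce3a (0.44), cornified envelope genes known to be induced in injured epidermis. Lce3f went from 18.8 ± 17.0 (SD, n = 4) to 1.66 ± 1.18 FPKM. Among the 10 genes the closest profiles were those of Fbn1 and Sparc (0.22), Eln and Sparc (0.22) and Dpt and Fn1 (0.28), and the farthest those of Tnc and Lum (2.07).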

How the data were processed

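Total RNA of mouse skin (4 MC903 and 4 MC903 plus phytic acid libraries) was taken with TRIzol and made into libraries with a SMARTER mRNA-seq kit, per the labels' protocols. The authors deposited 1 table of FPKM. Tools named in the submitters' processing notes, without roles, are cutadapt, HISAT2, TopHat2 and DESeq, and the build is mm10. For the FPKM, the tool, annotation and strandedness: not given in the sources used here. Exons of Fn1, Fbn1, Tnc, Eln and Thbs1 overlap genes on the other strand (Fbn1 over 2442 bases), so reads of these could not be told apart if strand was not used.

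Of 21959 rows, 51 had no gene name (0.016% to 0.024% of a column sum) and were left out, and for 21 repeated names the row of highest mean was kept. Columns were matched by the names in the labels. Gene positions are from GENCODE M21 (GRCm38, the assembly of mm10), counted from 1. Multiplied by exon length, the FPKM gave whole reads within 0.05 in all libraries for 17509 of 17980 genes (97.4%), which gave the depths. Values were tested as log2(FPKM + 1) with limma 3.58.1 in R 4.3.3 (eBayes with trend) (two-sided) wherever 4 or more libraries reached 1 FPKM. The fit was also run on simulated counts, with the same relative spread for every gene and without the length scaling of FPKM. That spread was below that of members such as Tnc, so the simulation does not show how the fit performs on them. Ratios of 3 gene pairs were tested by exact permutation. Alternatives were other pseudocounts, filters, scalings, centrings and fits, voom on the recovered reads, a replicate block, and dropping single libraries. The 10 genes and the lists were chosen with earlier results of these data known. All 10 are named, with up to 2 called genes of smallest p per list and direction. Genes named beyond these were chosen after their values were seen.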

Additional observations from a re-analysis of the deposited data

Results flagged for a closer look

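Each of the 10 genes was checked in each group of 4 libraries for a highest or lowest value far from the others, which chance gives in about 1 of 20 groups. Of 20 such groups, 1 had such a value. Thbs1 stood at 49.7 FPKM in MC903 replicate 4, against 22.6 to 26.7 FPKM in the other MC903 libraries, a gap of 0.848 of the range of the group, past the 95% limit of Dixon's test for 4 values. Without that library the log2 fold change of Thbs1 was -0.34 (adjusted p = 0.127 by limma).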

How the results depend on the processing

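The directions of the 10 genes were kept under the alternatives run, except for Eln, Fbn1 and Sparc centred on fibroblast markers (-0.36, -0.056 and -0.25) and Eln without phytic acid replicate 1 (leaving out single libraries gave -0.13 to 0.37). Centring on fibroblast markers called 7150 genes, 403 higher and 6747 lower, and 2 members lower, and shifted the median of all genes to -0.44. Centring on basal keratinocyte genes called 606 lower (median 0.23). Library weights called 4796 genes, 2865 higher, and 7 members, 6 of them higher. A mean of at least 5 FPKM called 1098 genes higher. Leaving out single libraries gave 1952 to 3891 genes, 1065 to 2386 higher and 887 to 1505 lower, with 3 to 6 members called, 3 to 5 higher and 0 to 2 lower. With the replicate number as a block (replicate block), 2046 genes were called, 1098 higher, and 5 members, 2 of them lower (Tnc, and Thbs1 at -0.59 with an adjusted p of 0.0485 by limma). Whether the numbers pair the samples is not known. Deviations of same-numbered libraries correlated at -0.28, -0.10, -0.29 and 0.23, and 1 of 4 libraries matched its own number best. So few values cannot decide it. The causes of these differences were not tested. Read depth was high for all 10 genes, so 4 libraries per group limit the precision.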
